A study of Mus musculus with 6 samples.

Results

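The genes described here are 9 components and regulators of complement, given as a list: C1ra and C1s1 (the C1 proteases), C4b and C2 (classical pathway), C3 (the central component), Cfb (factor B, alternative pathway), and the inhibitors Serping1, Cd55 and Cd59a. All 9 were among the 35127 genes measured, and all 9 passed the filter on low counts, which left 14359 genes. Complement is a protease cascade of innate immunity. C1 cleaves C4 and C2, their fragments form an enzyme that splits C3, and factor B builds another such enzyme that amplifies the reaction. C1 inhibitor, CD55 and CD59 hold the cascade back. In brain, astrocytes make several components themselves, C3 is widely used as a marker of inflammatory astrocytes, and C1q comes mainly from microglia.

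The study sequenced RNA of mouse astrocytes in 6 libraries. The 3 tumour libraries are astrocytes from brains that carried an allograft of small cell lung cancer (SCLC), an aggressive lung tumour of neuroendocrine type. The 3 sham libraries are astrocytes from brains given a sham injection. The sources used here do not give strain, age, time after injection, graft line or how the astrocytes were purified. They also do not say whether libraries of a group came from separate animals, so p-values measure the spread between libraries, which may be technical.

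Totals were 22133723 to 25800897 estimated reads per library. The tumour libraries lay close together, as did sham 1 and 2, with root mean square log2 differences of 0.322 to 0.352 within these sets. Sham 3 differed from sham 1 and 2 by 0.795 to 0.802, more than the tumour libraries differed from any sham library (0.734 to 0.749). Each sham library is therefore given separately. Astrocyte markers were present, with a summed level of 5488 to 5590 CPM (read counts scaled to a common library size) in the tumour libraries and 7260, 7273 and 4341 CPM in sham 1, 2 and 3. Of 10 tested, Aldh1l1 rose (log2 fold change 0.48, edgeR adjusted p = 0.0215), Gja1 fell (-0.94, edgeR adjusted p = 0.0268) and 8 were not called. Among 12 microglia and macrophage markers 6 passed the filter and 3 of them rose, Cd68 and Cd14 among them (10.5% of all tested genes rose). The summed level of the 12 was 258.9 to 269.5 CPM in the tumour libraries and 176.9 to 204.6 CPM in the sham libraries. Most of that sum came from genes other than Cd68 and Cd14. Cd68 had 41.3 to 45.8 CPM in the tumour libraries and 5.07 to 10.2 CPM in the sham libraries, and Cd14 at most 5.51 CPM. Aif1, Csf1r, Cx3cr1 and Fcrls had at most 0.952 CPM, and Ptprc had 0 or 1 read in each library. Fibroblast and mural cell markers summed to 3866 to 3901 CPM in the tumour libraries and 3577 to 6119 CPM in the sham libraries, with sham 3 highest. In sham 3 most of the sum was Col1a2 (3825 CPM) and Col1a1 (1717 CPM). Dcn, 1 of 8 tested, was instead lowest in sham 3. It had 155 to 157 CPM in the tumour libraries and 132, 123 and 52.5 CPM in sham 1, 2 and 3. Endothelial markers summed to 621.6 to 630.2 CPM in the tumour libraries and 549.1 to 623.4 CPM in the sham libraries. Most of this was Cdh5 (573 to 577 CPM and 497 to 595 CPM in these groups), while Cldn5 had 0 reads in each library. Kdr, 1 of 5 tested, fell (log2 fold change -1.29, adjusted p = 0.0035). Neuron markers summed to 19.39 to 21.25 CPM in the tumour libraries and 13.37 to 19.74 CPM in the sham libraries, and of 5 tested Gad1 rose (log2 fold change 1.70, adjusted p = 0.0019) and Tubb3 fell (-1.04, adjusted p = 0.0172). Oligodendrocyte markers summed to 887.6 to 922 CPM and 763.3 to 1014 CPM in these groups, with no gene called. Cldn11 made up most of each sum, at 838 to 869 CPM in the tumour and 581 to 960 CPM in the sham libraries. Mbp had 12.6 ± 0.956 CPM in tumour astrocytes and 4.27 ± 3.15 CPM in sham astrocytes (SD, n = 3 each, adjusted p = 0.0628 in edgeR). Mitochondrial reads made up 4.05% to 4.23% of the tumour libraries and 6.66%, 6.20% and 4.20% of sham 1, 2 and 3. SCLC and epithelial markers, which graft cells would carry, summed to 16.39 to 20.23 CPM and 19.65 to 30.26 CPM in these groups, with 8, 8 and 6 reads of Epcam in the tumour libraries and 0 in each sham library. The part of these cells and of the mitochondrial share in the results below was not tested, and in bulk RNA fewer cells of a type and less RNA per cell cannot be told apart.

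C2 and Serping1 rose in the tumour libraries. The other 7 genes did not pass the test, and 4 of them, C3, C4b, C1s1 and Cd59a, lay below sham 1 and 2 but above sham 3. The count of 2 of 9 higher and 0 of 9 lower (edgeR quasi-likelihood test, p adjusted by Benjamini-Hochberg, threshold 0.05) stands beside 10.5% higher and 10.4% lower among all tested genes, 20.9% in all. For 5 members all tumour values were above all sham values, as in 22.2% of tested genes, and for 0 members all were below, as in 21.9%. The median log2 fold change, tumour over sham, was 0.24 over the 9 genes and -0.02 over all tested genes.

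**Figure D1:**
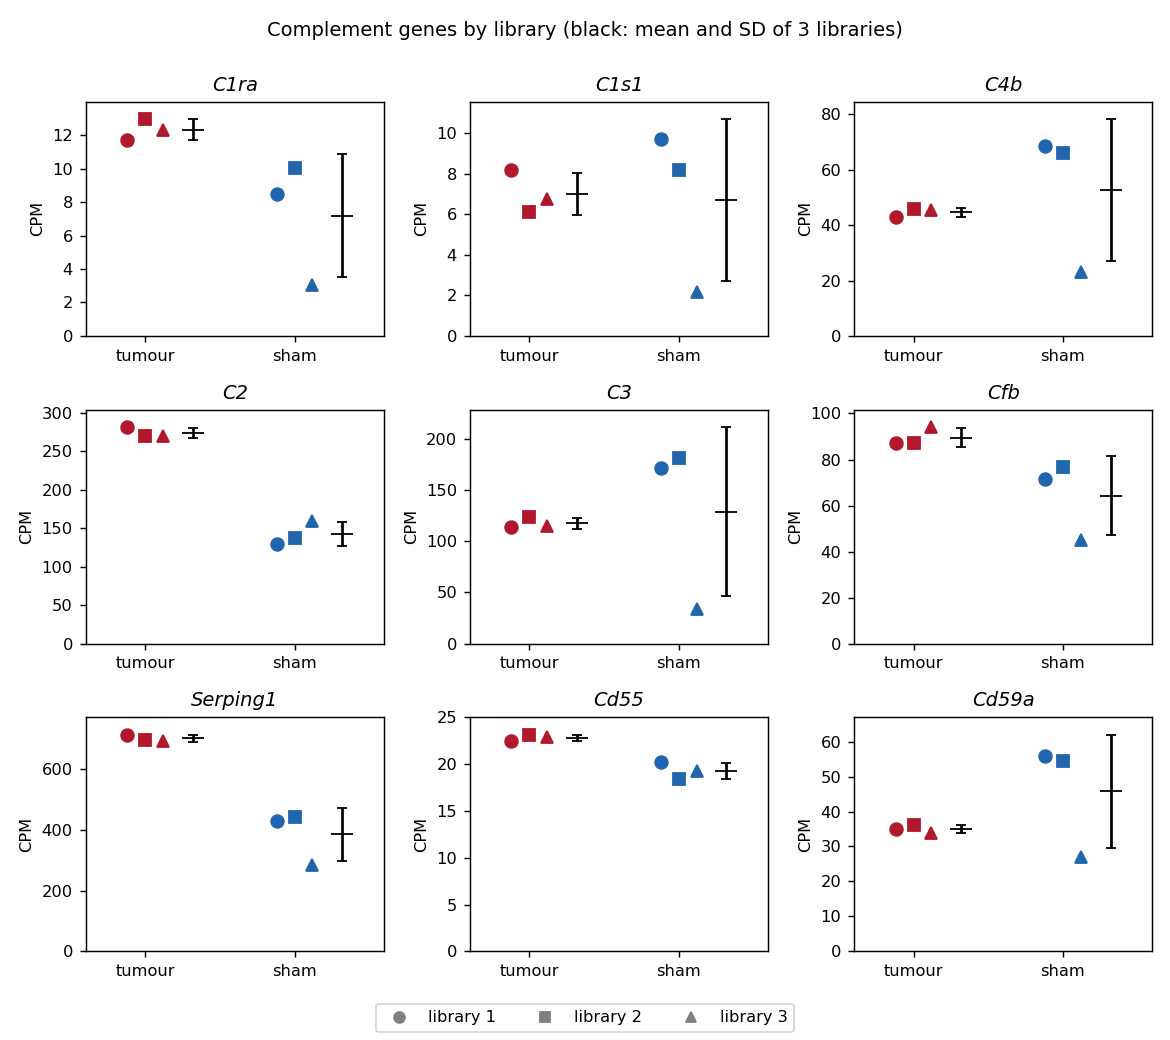
Level of each complement gene in CPM (vertical axis from 0) in the 3 tumour and 3 sham libraries, with marker shapes for library numbers and the mean and SD in black. The tumour values of C2 (269 to 281 CPM) and Serping1 (693 to 714 CPM) lie above every sham value, and sham 3 is the lowest point for 7 of the 9 genes.

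TPM values, which are scaled for transcript length, allow levels to be compared between genes. Serping1 was the most abundant of the 9 in both groups, at 662 ± 21.4 TPM in the tumour libraries and 353 ± 70.0 TPM in the sham libraries (SD, n = 3 each). C2 followed at 163 ± 6.10 and 86.2 ± 14.4 TPM. Then came Cfb (46.0 ± 1.82 TPM in the tumour libraries), Cd59a (40.1 ± 2.07), C3 (32.8 ± 3.68), Cd55 (19.4 ± 0.780) and C4b (12.4 ± 0.300), with no overlap between neighbours in that order over the 3 tumour libraries. C1ra and C1s1 were lowest, at 5.90 ± 0.25 and 4.63 ± 0.899 TPM. In the sham libraries Cd59a (49.2 ± 16.4 TPM), C3 (36.6 ± 24.2) and Cfb (33.2 ± 8.79) lay within their spread of each other, as did Cd55 (16.0 ± 1.52) and C4b (14.9 ± 7.30), and C1s1 (3.67 ± 2.21) and C1ra (3.37 ± 1.70). The inhibitor transcript Serping1 thus stood far above those of the C1 proteases, C1ra and C1s1, in every library.

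C2, the protease subunit of the classical C3 convertase, had 281, 270.0 and 269 CPM in tumour libraries 1 to 3, against 129, 138 and 159 CPM in sham 1 to 3. Every tumour library was well above every sham library, and here sham 3 was the highest sham value. The log2 fold change was 0.94 (SE 0.09, edgeR adjusted p = 0.00209), 1.92-fold. The tumour mean was 2.11, 1.99 and 1.72 times the level of sham 1, 2 and 3. The call held without any 1 library (adjusted p at most 0.021). It was lost only when the near-coinciding libraries were summed into 1 tumour and 2 sham values (adjusted p = 0.999 in edgeR, and 0.826 in DESeq2), where edgeR called no gene at all.

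C2 lies at chromosome 17, 34862604 to 34898265 (mm10, minus strand), in the MHC class III region. Cfb, at 34856374 to 34862518, starts 85 bases downstream of it on the same strand, and an annotated readthrough gene, Gm20547, spans both. The C2 transcript shares 59.7% of its 31-base words with Gm20547, and the Cfb transcript 81.5%, so the division of reads rests on Salmon's estimate. Only 21, 24 and 46 reads were given to Gm20547 in the tumour libraries and 19, 7 and 39 in the sham libraries, beside 6567 to 6810 and 2943 to 3511 reads on C2. Adding them to both genes left the log2 fold changes at 0.94 for C2 and 0.47 for Cfb. A single annotated transcript carried 99.0% of C2 reads in each tumour library and 96.8% to 98.7% in the sham libraries.

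Cfb, which encodes factor B, the alternative pathway counterpart of C2, had 87.2, 87.3 and 94.2 CPM in the tumour libraries and 71.5, 76.7 and 44.8 CPM in sham 1, 2 and 3. The groups did not overlap, but the change did not pass the test (log2 fold change 0.48, SE 0.19, adjusted p = 0.129). The tumour mean was 1.25 and 1.17 times sham 1 and 2 and 2.00 times sham 3. The ratio of C2 to Cfb in TPM was 3.77, 3.58 and 3.31 in the tumour libraries, against 1.97, 2.12 and 4.41 in sham 1, 2 and 3, so the tumour ratio lay between those of the sham libraries. In tumour library 1 the Cfb reads were divided between 2 annotated transcripts with nearly the same ends (47.7% and 48.6%), while the first of them took 89.3% to 98.6% in the other 5 libraries.

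Serping1 encodes C1 inhibitor, the serpin that inactivates C1r and C1s as well as proteases of the lectin, contact and kinin systems. Its levels were 714, 696 and 693 CPM in the tumour libraries and 429, 441 and 285 CPM in sham 1, 2 and 3. All tumour values exceeded all sham values, and sham 3 was the lowest. The log2 fold change was 0.86 (SE 0.18, edgeR adjusted p = 0.0185), 1.82-fold. Without tumour library 1, 2 or 3 the adjusted p was 0.0827, 0.0781 and 0.0778, so the call ended with any 1 of them left out, while the log2 fold change remained between 0.85 and 0.87. In these fits 6.17%, 6.33% and 6.30% of all tested genes were called, and C2 was the only member among them. Summing the near-coinciding libraries also ended the call (adjusted p = 0.999 in edgeR and 0.886 in DESeq2). Serping1 lies at chromosome 2, 84765387 to 84775444, and shares none of its 31-base words with another gene. Its main coding transcript held 89.3% to 89.7% of its reads in the tumour libraries and 87.6% to 90.2% in the sham libraries.

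The C1 proteases, which C1 inhibitor inactivates, had far lower transcript levels than Serping1. C1ra had 11.7, 12.9 and 12.3 CPM in the tumour libraries and 8.49, 10.02 and 3.04 CPM in sham 1, 2 and 3. The tumour values were above all sham values, but the test was not passed (log2 fold change 0.78, SE 0.39, adjusted p = 0.211). C1s1 had 8.16, 6.13 and 6.75 CPM in the tumour libraries and 9.72, 8.19 and 2.18 CPM in the sham libraries, with overlapping groups (log2 fold change 0.06, SE 0.49, adjusted p = 0.941). In sham 3 these levels rest on 67 reads of C1ra and 48 of C1s1. Both genes have a near copy, and 56.9% of the 31-base words of C1ra occur in C1rb and 37.0% of those of C1s1 in C1s2. With each pair summed the log2 fold changes were 0.80 (adjusted p = 0.16) for C1ra and 0.04 (adjusted p = 0.962) for C1s1. The recognition subunits C1qa, C1qb and C1qc, named after their values were seen, were at most 1.11 CPM in the tumour libraries. In sham 1 and 2 C1qa had 3.65 and 3.99 CPM and in sham 3 0.635 CPM, and none of these 3 genes passed the test (adjusted p = 0.153 to 0.338).

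On the log2 scale C3 was the member that varied most among the sham libraries. It had 114, 124 and 115 CPM in the tumour libraries, against 172, 181 and 33.4 CPM in sham 1, 2 and 3. The tumour libraries lay below sham 1 and 2 and above sham 3, so the fold change over all libraries (log2 -0.13, SE 0.55, adjusted p = 0.887) describes no sham library. Without sham 3 the log2 fold change was -0.59 (edgeR adjusted p = 2.55e-15), and against sham 3 alone it was 1.80 (adjusted p = 2.54e-20). C3 lies at chromosome 17, 57203970 to 57228136, and shares none of its 31-base words with another gene. A single transcript carried at least 98.2% of its reads in each library.

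Upstream sequences from RefSeq (GRCm38.p6) are shown for C3, the member with the widest spread on the log2 scale among the sham libraries, and for Cd55, the member with the narrowest. Each covers the 250 bases before the transcription start, read 5′ to 3′ on the gene's strand. They are C3 at chr17:57228137-57228386, minus strand, and Cd55 at chr1:130462745-130462994, minus strand. Capitals mark a match to any of 5 motifs searched on both strands.
C3: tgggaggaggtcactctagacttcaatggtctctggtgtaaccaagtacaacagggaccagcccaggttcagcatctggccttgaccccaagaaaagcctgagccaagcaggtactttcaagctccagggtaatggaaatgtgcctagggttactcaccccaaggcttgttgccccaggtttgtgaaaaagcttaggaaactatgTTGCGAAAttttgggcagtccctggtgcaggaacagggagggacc
Cd55: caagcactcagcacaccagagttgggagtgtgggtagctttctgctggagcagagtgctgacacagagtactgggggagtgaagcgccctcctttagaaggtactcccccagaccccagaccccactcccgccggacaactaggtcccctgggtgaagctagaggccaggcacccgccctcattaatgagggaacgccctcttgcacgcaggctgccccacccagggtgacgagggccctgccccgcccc

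The match in C3, TTGCGAAA, lies 45 to 38 bases before the start and has the form TTGCNNAA, a core bound by C/EBP factors. That form occurs in 9.56% of 32851 promoter windows of this length. The other motifs searched were TTCNNNGAA (STAT type, 7.02% of windows), GGG and TTTCC 2 bases apart (NF-kB type, 1.41%), GAAA and GAAA 2 bases apart (IRF type, 2.98%) and ACGTG (hypoxia type, 16.6%), none of which occurs in these letters of C3 or Cd55. Windows were found for 5 of the 9 genes. That of C1ra, without a match, belongs to a start (124512621) other than that of its measured transcript (124512405). Besides C3, C1s1 holds a TTGCNNAA match on the opposite strand, 242 to 235 bases before the start of its main transcript (124542359). The window of another C1s1 start (124542321) holds no match. Cd59a holds an IRF-type match 187 to 178 bases before its start. No matches overlapped. These are matches of letters, not sites shown to be bound.

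C4b, the classical pathway component that pairs with C2, followed the order of libraries seen for C3. It had 42.9, 45.8 and 45.4 CPM in the tumour libraries and 68.6, 66.0 and 23.0 CPM in sham 1, 2 and 3 (log2 fold change -0.23, SE 0.38, adjusted p = 0.701). Of its 31-base words 48.8% occur in the neighbouring copy C4a, which was not analysed here, so reads of C4a may be counted in C4b. The ratio of C3 to C4b in TPM was 2.67, 3.02 and 2.29 in the tumour libraries and 2.51, 2.78 and 1.31 in sham 1, 2 and 3. Part of the C3 TPM came from a short annotated transcript of 662 bases with at most 68.5 reads. It added 4.52, 5.96 and 0 TPM in tumour libraries 1 to 3 and 9.07, 7.58 and 0 TPM in sham 1 to 3, so the spread of this ratio partly rests on it.

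The membrane inhibitors differed from each other. Cd55, which speeds the decay of C3 convertases, had 22.4, 23.1 and 22.9 CPM in the tumour libraries and 20.2, 18.4 and 19.2 CPM in the sham libraries. Its 3 sham values were close together and all lay below the tumour values, with a small difference that missed the threshold (log2 fold change 0.24, SE 0.07, adjusted p = 0.0635). Cd59a, which blocks the membrane attack complex, had 34.9, 36.2 and 33.8 CPM in the tumour libraries and 55.9, 54.5 and 27.1 CPM in sham 1, 2 and 3. It again lay between the sham libraries (log2 fold change -0.39, SE 0.26, adjusted p = 0.333). Summing Cd59a with its copy Cd59b, or Cd55 with Cd55b, left log2 fold changes of -0.35 and 0.25, neither of which passed.

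**Figure D2:**
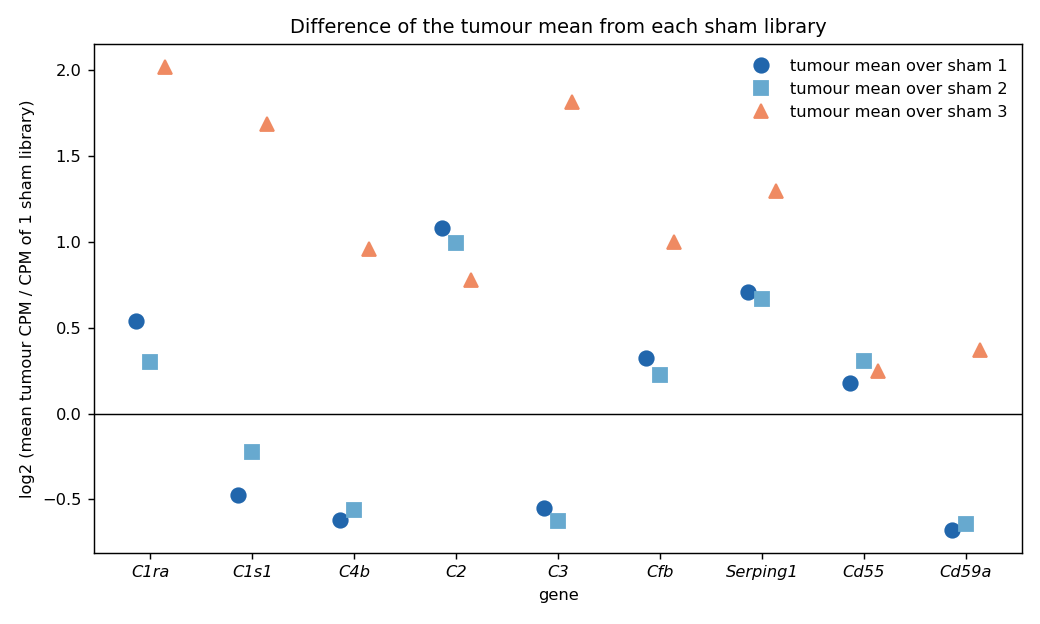
Log2 ratio of the mean tumour CPM to the CPM of each sham library (vertical axis), for each of the 9 genes (horizontal axis). C2, Serping1, Cfb, C1ra and Cd55 are above 0 against each sham library, whereas C3, C4b, C1s1 and Cd59a are below 0 against sham 1 and 2 and above 0 against sham 3.

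The sham libraries thus set the direction for 4 of the 9 genes. Without sham 3, 5 members were called higher and 4 lower, where 29.1% and 28.6% of all tested genes were (57.7% in all). Against sham 3 alone, an alternative added after the data were seen in which the lone library is assumed to vary like the tumour libraries, 8 were called higher and 0 lower, where 24.6% and 25.1% of all tested genes were (49.7% in all). Sham 3 was below the other 5 libraries for 7 of the 9 members (C3, C4b, C1ra, C1s1, Cfb, Serping1 and Cd59a), and for 27.4% of all tested genes. It was above the other 5 for 0 members and for 27.3% of all tested genes. Its distance below the mean of sham 1 and 2 was largest for C3 (log2 -2.40), C1s1 (-2.04), C1ra (-1.61) and C4b (-1.55). For Cd55 the difference was 0.00, and for C2 sham 3 lay above that mean (log2 0.26). Astrocyte markers were also lowest in sham 3 for 7 of 10 genes, and their part in these differences was not tested.

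The rest of the complement system comprised 54 listed genes, of which 53 were measured and 31 passed the filter. Of these 31, 3 rose and 1 fell, shares no larger than the 10.5% and 10.4% of all tested genes, with a median log2 fold change of 0.21. The genes that rose were Cr1l (Crry, the main rodent membrane inhibitor of C3 activation), Susd4 (a sushi-domain complement inhibitor) and Itgb2 (the beta chain of complement receptors CR3 and CR4). The gene that fell was Hc, which encodes mouse C5. All 4 calls ended without any 1 of the 5 libraries other than sham 3, with adjusted p of 0.0563 to 0.16. Cr1l had 45.3, 40.8 and 45.2 CPM in the tumour libraries and 35.8, 35.7 and 35.7 CPM in sham astrocytes (log2 fold change 0.29, SE 0.07, adjusted p = 0.0274). The other 3 were low: Susd4 had 3.48 ± 0.524 and 1.88 ± 0.191 CPM, Itgb2 2.15 ± 0.0370 and 0.605 ± 0.332 CPM, and Hc 1.54 ± 0.311 and 2.93 ± 0.450 CPM in tumour and sham libraries (SD, n = 3 each). With transcript length offsets these 3 calls were lost, at log2 fold changes of 0.79 for Susd4 (adjusted p = 0.0756), 1.02 for Itgb2 (0.364, against a log2 fold change of 1.83 without the offsets) and -1.56 for Hc (0.0641, against -0.92). Itgb2 is a leukocyte gene, and its partner chains Itgam and Itgax had 0 or 1 read in each tumour library and 0 to 9 in the sham libraries.

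Among fluid-phase regulators Clu (clusterin), at 419 and 321 TPM in tumour and sham libraries, did not pass the test (log2 fold change 0.36, SE 0.36, adjusted p = 0.509), with 500.0 to 519 CPM in the tumour libraries and 485, 521 and 187 CPM in sham 1, 2 and 3. For the lectin pathway genes Masp1 and Colec12 sham 3 lay nearest to the tumour libraries. Masp1, a lectin pathway protease, had 74.3, 71.5 and 72.0 CPM in the tumour libraries and 16.0, 13.5 and 53.1 CPM in sham 1, 2 and 3 (log2 fold change 1.40, SE 0.51, adjusted p = 0.0989). Colec12, a scavenger collectin of the cell surface, had 319.7, 319 and 314 CPM in the tumour libraries, against 138, 134 and 271 CPM in the sham libraries (0.81, SE 0.28, adjusted p = 0.0853). Calr (calreticulin) and Lrp1, which bind C1q among many ligands, were abundant but did not pass (0.53 and 0.28, adjusted p = 0.103 and 0.218). Of the terminal components C8g had 4.97 ± 0.899 and 4.68 ± 0.919 CPM, while C8b and C9 had 0 reads in all libraries.

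**Figure D3:**
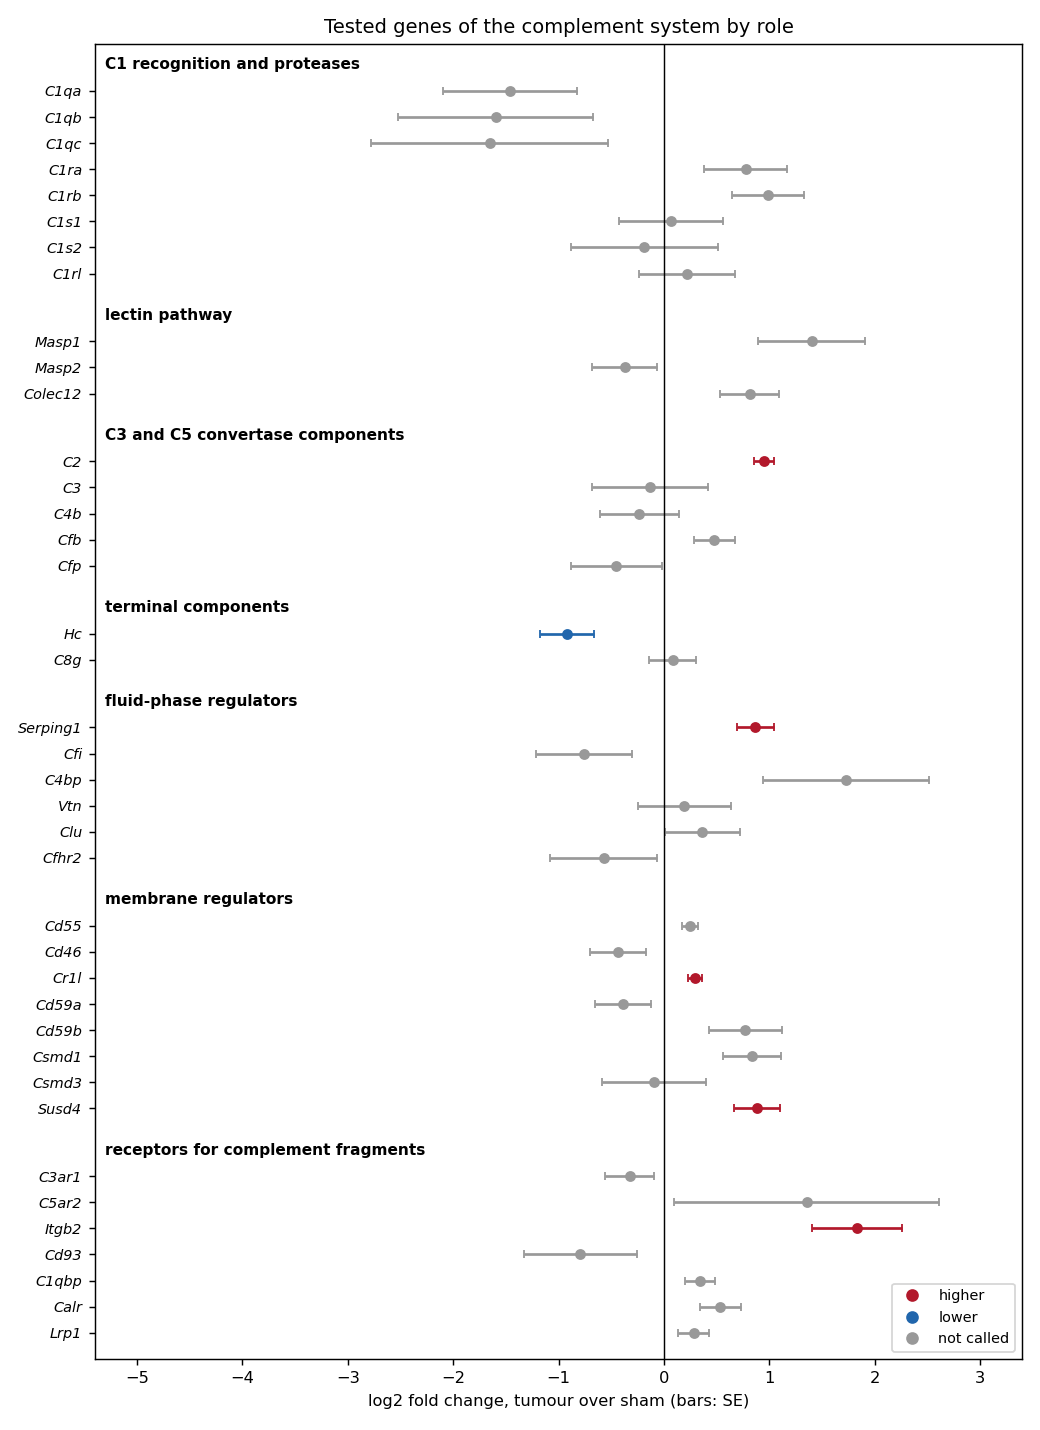
Log2 fold change, tumour over sham, with its SE (horizontal axis) for complement genes that passed the filter, grouped by role (vertical axis). Red points rose (C2, Serping1, Cr1l, Susd4, Itgb2), the blue point fell (Hc), and grey points did not pass the test.

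Complement transcription in astrocytes is known to respond to interferon gamma, to interleukin 1 and tumour necrosis factor through NF-kB and C/EBP beta, and to glucocorticoids. Of 24 genes of these pathways, all tested, 10 rose and 1 fell, beside 10.5% and 10.4% of all tested genes, with a median log2 fold change of 0.18. Cebpb (C/EBP beta) rose to 146, 156 and 153 CPM in the tumour libraries, against 86.2, 83.3 and 74.5 CPM in sham astrocytes (log2 fold change 0.90, SE 0.07, adjusted p = 0.00116). Ifngr1, an interferon gamma receptor chain, rose (0.81, SE 0.07, adjusted p = 0.00132), as did Nr3c1, the glucocorticoid receptor gene (0.57, SE 0.06, adjusted p = 0.00297). These 3 calls held without any 1 library, and sham 3 lay near sham 1 and 2 for each. All 3 were lost when the near-coinciding libraries were summed (adjusted p = 0.999 in edgeR and at least 0.757 in DESeq2).

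The other genes that rose were Nfkbia (0.68), Il6st (0.42), Irf2 (0.42), Ifnar2 (0.39), Rela (0.35), Nfkb1 (0.35) and Il1r1 (0.27), with SEs of 0.06 to 0.15. Their calls were less stable. Those of Il6st, Irf2, Ifnar2 and Il1r1 ended without any 1 of the 5 libraries other than sham 3 (adjusted p = 0.0706 to 0.148). That of Nfkb1 ended without sham 2 (0.052) or any tumour library (0.0582 to 0.0652). That of Nfkbia ended without any tumour library (0.0783 to 0.092), and that of Rela without tumour library 1 or 3 (0.0537 and 0.0571). With transcript length offsets the calls of Nfkb1, Irf2 and Il1r1 were lost (edgeR adjusted p = 0.056 to 0.0946). With replicate number as a block those of Nfkbia, Nfkb1, Il6st, Ifnar2 and Il1r1 were lost (0.0538 to 0.112). Socs3, a feedback inhibitor of cytokine signalling through STAT3, had 138, 144 and 144 CPM in the tumour libraries and 310.0, 316 and 71.1 CPM in sham 1, 2 and 3 (log2 fold change -0.71, SE 0.51, adjusted p = 0.361), the order of libraries seen for C3. Tnfrsf1a, a tumour necrosis factor receptor gene, had 166 ± 0.618 and 144 ± 27.1 CPM in tumour and sham libraries (SD, n = 3 each).

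**Figure D4:**
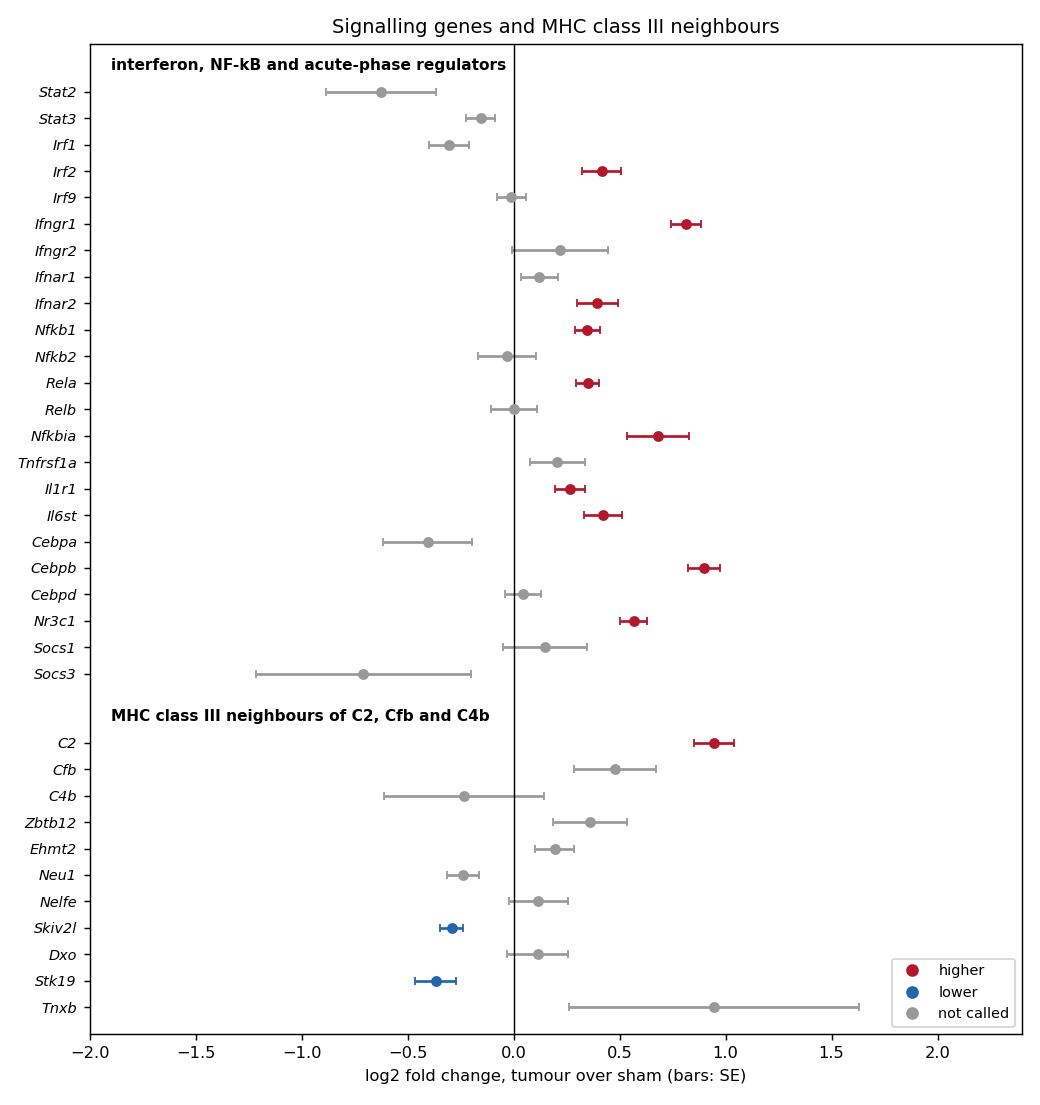
Log2 fold change, tumour over sham, with its SE (horizontal axis) for signalling genes and for the MHC class III genes around C2, Cfb and C4b (vertical axis). Cebpb, Ifngr1 and Nr3c1 rose, and C2 is the only MHC class III gene tested here that rose.

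The genes around C2, Cfb and C4b belong to the MHC class III region. Of 11 tested genes of that stretch, the 3 members included, 1 rose (C2) and 2 fell (10.5% and 10.4% among all tested genes). The genes that fell were Skiv2l (log2 fold change -0.29, SE 0.05, adjusted p = 0.0129) and Stk19 (-0.37, SE 0.10, adjusted p = 0.0409). Without any 1 of the tumour libraries Skiv2l had adjusted p of 0.0724 to 0.0747 and Stk19 of 0.0668 to 0.149. Stk19 also lost its call without sham 1 (0.0999) or sham 2 (0.119), and with transcript length offsets (0.081). With replicate number as a block Skiv2l and Stk19 both lost their calls (edgeR adjusted p = 0.0637 and 0.0866). Ehmt2, which encodes a histone methyltransferase, had 181, 186 and 187 CPM in the tumour libraries and 151, 152 and 182 CPM in the sham libraries (0.19, adjusted p = 0.182).

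Among 10802 genes of at least 5 CPM, those with the profile over the 6 libraries nearest to C2 were Spsb1, Adra1b and Dtnb, with root mean square log2 differences of 0.0451 to 0.0562 after centring. Spsb1 had 135, 128 and 137 CPM in the tumour libraries and 63.5, 63.4 and 76.4 CPM in the sham libraries. Nearest to Serping1 were Papss2, Camk2n1 and Hjurp (0.0376 to 0.0407). Nearest to C3 were Igsf1, Cntfr and Apoe (0.0900 to 0.0998). Apoe, the main apolipoprotein gene of astrocytes, had 2452, 2570 and 2533 CPM in the tumour libraries and 3275, 3283 and 654 CPM in sham 1, 2 and 3, with sham 3 lowest as for C3.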

How the data were processed

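The tools named in the submitters' processing notes are Salmon 0.8.2 and DESeq2 1.28.1, with the build mm10. The deposited tables give, per the file headers, estimated counts and TPM for each transcript, with its length and effective length. The sources used here do not give index, options, library kit or strandedness. Of 113116 transcripts, 112841 had their unversioned identifier in GENCODE M21 (GRCm38). Counts and TPM were summed per gene and counts were rounded.

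The test was edgeR 4.0.16 (R 4.3.3) with TMM scaling, filterByExpr (minimum count 10, minimum total 15), a robust quasi-likelihood fit on group alone, and Benjamini-Hochberg adjustment over all genes tested. CPM uses TMM library sizes. An SE was taken as the size of the log2 fold change divided by the root of F. DESeq2 1.42.0 and limma 3.58.1 (voom) were alternatives. The tests were tried on simulated counts, drawn for independent libraries with the same relative spread for every gene. That trial did not imitate the near-coinciding libraries or the distance of sham 3, so it says nothing about their effect on the calls. A level of 3 reads equals 0.118 to 0.136 CPM. Words of 31 bases were compared with all GENCODE M21 transcripts on both strands.

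The members, lists and tests were chosen with earlier results of these data known. All 9 members are named. Of the other lists, called genes and up to 2 abundant ones not called are named, and for C2, Serping1 and C3 the 3 genes nearest in profile. Some genes of these lists are counted but not reported here by name.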

Additional observations from a re-analysis of the deposited data

How the results depend on the processing

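C2 kept its call in 15 of 17 alternatives (log2 fold change 0.77 to 1.03) and Serping1 in 11 of 16 (0.69 to 1.29). Leaving out 1 library gave 1 to 5 members higher and 0 to 4 lower, 536 to 4250 of all genes higher and 355 to 4179 lower, and 0 to 13 of the rest of the complement system higher and 0 to 5 lower. Against sham 3 alone these counts were 8 members higher, 3682 and 3758 of all genes, and 13 and 2 of the rest. With near-coinciding libraries summed, edgeR made 0 calls (573 genes had an unadjusted p under 0.05). DESeq2 made 77 calls higher and 11 lower there, with 0 among the members and 0 among the rest. DESeq2 on all libraries called 7 of the rest higher. Without a filter 0 of the rest were lower, and with transcript length offsets 1 was higher and 0 lower, with 968 of all genes lower. C3 changed sign with limma-voom (0.22), with the near libraries summed (0.15 in edgeR, 0.16 in DESeq2), without sham 1 (0.13) or sham 2 (0.19, against -0.59 without sham 3) and against sham 3 alone (1.80). C1s1 changed sign without tumour library 1 (-0.06) and without sham 3 (-0.35, adjusted p = 0.04), and was 0.43 without sham 1. C4b (0.95) and Cd59a (0.36) changed sign against sham 3 alone. The cause was not tested.

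The labels do not say whether replicate numbers pair the samples. Deviations of same-numbered libraries from their group means had correlations of 0.00785, -0.0194 and -0.0008. These values cannot decide it, because the tumour libraries nearly coincide and sham 3 lies far from sham 1 and 2. Under a replicate block 829 genes were higher and 607 lower, C2 and Serping1 kept their calls, 0 of the rest were called in either direction, and C3 had 0.16.

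Low levels limit C1ra, C1s1, C1q, Susd4, Itgb2 and Hc. Near copies limit C1ra, C1s1 and C4b. Near-coinciding libraries leave few independent values.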
